A study of Mus musculus with 9 samples.

Results

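The collagens of the basement membranes and of Descemet membrane were described in the central cornea of 3 inbred mouse strains. The 10 genes were chosen by name: Col4a1, Col4a2, Col4a3, Col4a4, Col4a5 and Col4a6 for type IV collagen, Col8a1 and Col8a2 for type VIII, and Col15a1 and Col18a1 for types XV and XVIII. All 10 genes were on the array, with 19 of its 45037 non-control probe sets. Where several probe sets carried a gene's symbol and no other, the brightest on average gave the gene's value, and the others served as a check. Of 18193 genes valued in this way, 10956 were bright enough to be tested, and 8 of the 10 collagens were among them with 16 probe sets.

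The study asked how corneal transcripts differ among strains whose corneas differ in thickness. The strains were C57Bl/6J (B6), C57BLKS/J (KS), which the labels give a thin cornea, and SJL/J (SJL), which they give a thick cornea. B6 has no thickness label. All mice were adult males of 4 months with no treatment or engineered allele named in the labels, and each of the 3 arrays per strain held RNA of 1 mouse, from 2-mm punches of central cornea of both eyes. A punch holds epithelium, stroma and endothelium together, so fewer cells of a type and less RNA per cell cannot be told apart.

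As background, type IV collagen forms the sheet-like network of every basement membrane. Its chains assemble in threes into a few permitted combinations: alpha1 with alpha2 in nearly all tissues, alpha3 with alpha4 and alpha5, and alpha5 with alpha6. Descemet membrane, the thick basement membrane laid down by the corneal endothelium, also holds a hexagonal lattice of the short-chain collagen VIII, built from the Col8a1 and Col8a2 products. Collagens XV and XVIII carry heparan or chondroitin sulfate chains at basement membranes, and XVIII is the source of endostatin.

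The chain genes of type IV collagen lie in head-to-head pairs. Col4a1 and Col4a2 were neighbours on chromosome 8, Col4a3 and Col4a4 on chromosome 1, and Col4a5 and Col4a6 on chromosome X, with 0 protein-coding genes starting between the members of each pair in the RefSeq table of GRCm38.p6. The RefSeq promoter table held windows of 300 bases, from 250 before to 50 after a start, for 9 of the 10 genes, Col4a3 being the exception. The Col4a1 and Col4a2 windows are shown because these 2 chains moved together across the arrays. The windows overlap by 78 bases, in capitals, which read in opposite directions from the 2 genes: Col4a1 is at chr8:11312777-11313076 on the minus strand and Col4a2 at chr8:11312555-11312854 on the plus strand.
Col4a1: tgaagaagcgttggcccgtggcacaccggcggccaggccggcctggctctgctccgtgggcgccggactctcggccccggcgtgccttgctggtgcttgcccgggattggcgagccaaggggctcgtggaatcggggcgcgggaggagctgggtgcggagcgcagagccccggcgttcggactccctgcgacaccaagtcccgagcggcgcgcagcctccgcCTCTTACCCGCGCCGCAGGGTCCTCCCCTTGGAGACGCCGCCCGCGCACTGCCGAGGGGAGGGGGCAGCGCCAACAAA
Col4a2: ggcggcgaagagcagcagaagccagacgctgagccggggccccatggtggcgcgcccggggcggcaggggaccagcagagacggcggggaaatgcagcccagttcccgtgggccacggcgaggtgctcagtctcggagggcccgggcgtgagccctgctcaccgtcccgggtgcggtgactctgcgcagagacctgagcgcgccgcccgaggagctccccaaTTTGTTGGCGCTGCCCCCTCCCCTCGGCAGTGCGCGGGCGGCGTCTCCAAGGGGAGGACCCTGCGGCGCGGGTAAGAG

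The Col4a4 window, chr1:82586800-82587099 on the minus strand, is shown because Col4a4 was the 1 collagen whose chosen probe set passed the tests below. Capitals mark the bases that lie inside the annotated interval of the neighbouring gene Col4a3.
Col4a4: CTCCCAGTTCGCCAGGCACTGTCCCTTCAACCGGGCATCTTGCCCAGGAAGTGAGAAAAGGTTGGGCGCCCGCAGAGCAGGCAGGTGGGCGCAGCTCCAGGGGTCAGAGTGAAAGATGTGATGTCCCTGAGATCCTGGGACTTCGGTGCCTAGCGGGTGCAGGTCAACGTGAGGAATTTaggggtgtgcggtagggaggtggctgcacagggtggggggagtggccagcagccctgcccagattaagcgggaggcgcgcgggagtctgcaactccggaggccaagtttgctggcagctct

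Col8a1 and Col8a2 lie on different chromosomes, and their windows are shown because these chains also varied together within strains. This was not particular to them, since all 28 pairs of the tested collagens correlated positively within strains. Col8a1 is at chr16:57754688-57754987 on the minus strand and Col8a2 at chr4:126286544-126286843 on the plus strand. Capitals mark the letters GGGCGG, searched on both strands, of which each window holds 4 copies, some of them overlapping in Col8a2.
Col8a1: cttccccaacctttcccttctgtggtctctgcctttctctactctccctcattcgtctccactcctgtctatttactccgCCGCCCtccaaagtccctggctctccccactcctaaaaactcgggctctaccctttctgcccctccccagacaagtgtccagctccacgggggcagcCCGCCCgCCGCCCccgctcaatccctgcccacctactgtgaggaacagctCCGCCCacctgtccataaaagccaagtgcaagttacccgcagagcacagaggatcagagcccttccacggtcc
Col8a2: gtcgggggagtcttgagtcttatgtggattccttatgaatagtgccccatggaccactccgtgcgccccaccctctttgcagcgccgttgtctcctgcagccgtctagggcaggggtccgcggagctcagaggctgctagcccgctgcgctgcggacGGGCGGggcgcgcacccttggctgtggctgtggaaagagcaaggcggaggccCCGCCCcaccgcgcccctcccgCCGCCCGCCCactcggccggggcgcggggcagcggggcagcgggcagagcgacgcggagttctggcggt

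GGGCGG occurred in 35.7% of all 32851 windows of the table. The Col4a1 window holds 1 copy, the Col4a2 window 3 and the Col4a4 window 0. CCAAT, searched on both strands, occurred in 37.4% of all windows, with 1 copy in each of the Col4a1 and Col4a2 windows and 0 in those of Col4a4, Col8a1 and Col8a2. TATAAA, also searched on both strands, occurred in 13.6% of all windows and in 0 windows of these collagens. The share of G and C was 74.0% for Col4a1, 73.7% for Col4a2, 71.7% for Col8a2, 63.3% for Col4a4 and 60.3% for Col8a1, against a median of 52.7% over all windows. These matches describe the letters only.

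Intensities are on the linear scale on which the authors deposited them, with upper quartiles of 380 to 398 across the 9 arrays, and 54.6% of all intensities lay below 16, near the lower end of the scale. Log2 differences are on log2(intensity + 10), and a difference is called where limma's adjusted p was under 0.05 over the 22519 probe sets tested. Markers of corneal epithelium and keratocytes were above 16 on all 9 arrays, as the label of central cornea implies. Markers of vessels and pericytes were not: all 10 lay below 16 on every array. Levels of 2 arrays stood apart. The summed level of 11 retina markers reached 7420 on KS replicate 3 against at most 67 on the other 8 arrays, and the log2 difference between the 3' and 5' Gapdh control probe sets was 1.55 on B6 replicate 3 against 0.73 to 1.16 elsewhere. KS replicate 3 had the lowest KS intensity for all 8 tested collagens, and B6 replicate 3 the highest B6 intensity for 5 of them. B6 replicate 2 had the lowest B6 intensity for 7 of them. The part of these arrays in the strain differences was not tested beyond the values given without them.

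Col4a1 encodes the alpha1 chain shared by nearly all basement membranes. Its intensities were 519.6, 355.1 and 675.7 in B6, 746.5, 718.9 and 596.3 in KS, and 417.5, 482.9 and 360.6 in SJL. All 3 SJL arrays lay below all 3 KS arrays, while B6 overlapped both strains. The SJL level was 420 ± 61.2 (SD, n = 3) against 687 ± 79.9 in KS, a log2 difference of -0.70 ± 0.22 (SE) that missed the threshold (limma adjusted p = 0.0701). It passed without B6 replicate 2 or B6 replicate 3 (limma adjusted p = 0.0242 and 0.0348), and with only the 6 KS and SJL arrays (0.0259), at the same -0.70. With any other single array left out it was not called (limma adjusted p 0.0806 to 0.201), the highest being without SJL replicate 3. The second Col4a1 probe set gave -0.68 ± 0.19 and passed (limma adjusted p = 0.0411), and the 2 probe sets correlated at r = 0.97 over the 9 arrays.

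Col4a2 encodes the alpha2 chain that completes the alpha1-alpha1-alpha2 trimer. Intensities were 669.6, 443.4 and 976.3 in B6, 988, 1035 and 728.7 in KS, and 521.3, 652 and 532.4 in SJL. Its arrays fell in nearly the same order as those of Col4a1, with B6 replicate 2 lowest and the same 4 arrays highest. The difference of SJL from KS was -0.67 ± 0.27 on the log2 scale, with no overlap between the strains, and was not called (limma adjusted p = 0.137). Without B6 replicate 3 and KS replicate 3 it was -0.83 and was called (limma adjusted p = 0.0472), and with only the KS and SJL arrays the adjusted p was 0.0478. The first of these fits was added after seeing the data and leaves out the lowest KS array. With 1 array left out the difference was never called (limma adjusted p 0.0601 to 0.324), the highest being without KS replicate 2.

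**Figure D1:**
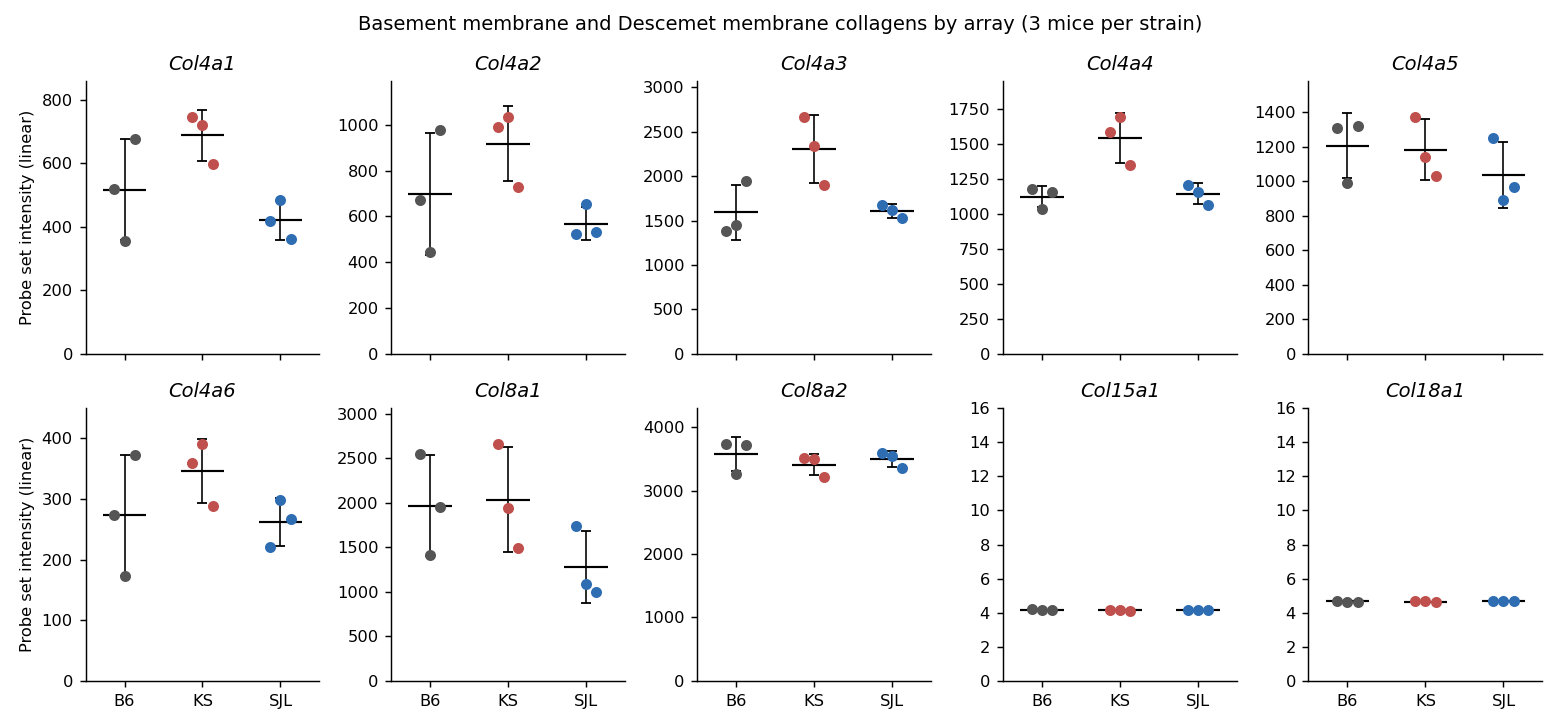
Linear probe set intensity of the 10 collagen genes by strain, with a separate y axis from 0 for each gene. Points are single arrays (1 mouse each, replicates 1 to 3 from left to right), lines are strain means and bars are SD (n = 3). The 3 KS arrays of Col4a4 lie at 1352 to 1698, above all B6 and SJL arrays, while Col15a1 and Col18a1 stay below 5 on every array.

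Col4a3 encodes the alpha3 chain, one of the chains of the alpha3-alpha4-alpha5 network. It measured 1381, 1455 and 1946 in B6, 2672, 2340 and 1902 in KS, and 1679.7, 1622.1 and 1529.6 in SJL. The KS arrays all lay above the SJL arrays, and the lowest KS array fell just under the highest B6 array. KS was 1.45-fold above B6 (log2 0.53 ± 0.16) and 1.42-fold above SJL (SJL minus KS, -0.50 ± 0.16). Neither difference was called (limma adjusted p = 0.112 and 0.0738). Without B6 replicate 3 both were called, at 0.68 for KS minus B6 and -0.50 for SJL minus KS (limma adjusted p = 0.0439 and 0.0381), and without KS replicate 3 the latter was called at -0.63 (0.0486). With any other single array left out SJL minus KS was not called (limma adjusted p 0.0815 to 0.208). KS minus B6 was called in no fit with 1 array left out but that without B6 replicate 3 (limma adjusted p 0.0839 to 0.302 in the rest). The second Col4a3 probe set measured 267.4, 309.8 and 287.6 in B6, 590.7, 554.4 and 405.4 in KS, and 324.7, 156.0 and 213.4 in SJL. Its difference between SJL and KS was -1.17 ± 0.25 and was called (limma adjusted p = 0.0135), and it correlated with the chosen set at r = 0.78.

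Col4a4 encodes the alpha4 chain and was the 1 collagen called on its chosen probe set. Intensities were 1181, 1037 and 1161 in B6, 1587, 1698 and 1352 in KS, and 1212, 1158 and 1065 in SJL. All 3 KS arrays stood above all 6 others, and B6 and SJL overlapped almost fully. Col4a4 was 1.34-fold higher in KS (1546 ± 177, SD, n = 3) than in SJL (1145 ± 74.3), a difference of -0.43 ± 0.11 for SJL minus KS (95% interval -0.68 to -0.17, limma adjusted p = 0.0334). KS exceeded B6 (1126 ± 78.0) by a similar 0.45 ± 0.11, which missed the threshold (limma adjusted p = 0.0533). SJL minus B6 was 0.02, with a 95% interval of -0.23 to 0.28.

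The Col4a4 call in SJL against KS was lost without 4 of the 6 arrays of these strains and kept without KS replicate 3 (-0.52, limma adjusted p = 0.0248) or SJL replicate 1 (-0.47, 0.043). In limma the adjusted p became 0.101 when KS replicate 1 was left out, 0.121 for KS replicate 2, 0.0646 for SJL replicate 2 and 0.115 for SJL replicate 3, with log2 differences of -0.35 to -0.43. It was also lost with no filter on dim probe sets (0.0635) and with only the 6 KS and SJL arrays (0.0593). KS minus B6 was called without KS replicate 3 (0.54, limma adjusted p = 0.0428) and with no other single array left out (0.0634 to 0.199). The second Col4a4 probe set was lower in SJL by a similar -0.47 ± 0.16 and was not called (limma adjusted p = 0.0812), and the dimmest, at a mean of only 11.2, had a 95% interval of -0.17 to 0.16 for SJL minus KS.

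Col4a5 encodes the alpha5 chain, which joins either alpha3 and alpha4 or alpha6. It measured 1308, 989.1 and 1319 in B6, 1374, 1140 and 1031 in KS, and 1249, 888.9 and 967.1 in SJL. The strains overlapped in every comparison. SJL minus KS was -0.19 ± 0.17 (95% interval -0.59 to 0.20, limma adjusted p = 0.515), and KS minus B6 was -0.03 (-0.42 to 0.37). The dimmer second Col4a5 probe set had all SJL arrays below KS with -0.42 ± 0.15, also not called (limma adjusted p = 0.107).

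Col4a6 encodes the alpha6 chain, the partner of alpha5 in a subset of basement membranes. Intensities were 273.6, 173.4 and 372.1 in B6, 359, 390.9 and 287.6 in KS, and 220.3, 298.7 and 267.4 in SJL. B6 spread 2.15-fold between its lowest and highest array and covered the range of SJL. SJL minus KS was -0.39 ± 0.25 (limma adjusted p = 0.367) and KS minus B6 was 0.38 ± 0.25 (limma adjusted p = 0.462). Its second probe set, at a mean of 28.2, gave -0.27 and 0.39 with no call.

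Col8a1 encodes the alpha1 chain of the Descemet membrane lattice. Its intensities were 2545, 1411 and 1948 in B6, 2662, 1944 and 1491 in KS, and 1739, 1088 and 1000 in SJL. SJL held the lowest 2 arrays, but its replicate 1 lay above KS replicate 3 and B6 replicate 2. The SJL level of 1276 ± 403 (SD, n = 3) stood 1.59-fold below the KS level of 2032 ± 590 and 1.54-fold below the B6 level of 1968 ± 567. Neither difference was called on this probe set (log2 -0.67 ± 0.30 and -0.62 ± 0.30, limma adjusted p = 0.181 and 0.209).

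Both of the dimmer Col8a1 probe sets were lower in SJL than in KS and passed. The first measured 61.9, 29.6 and 44.0 in B6, 100.7, 66.7 and 49.8 in KS, and 17.0, 29.5 and 11.4 in SJL, and from KS to SJL it fell by 1.49 on the log2 scale (SE 0.31, limma adjusted p = 0.0132). The second measured 21.2, 15.4 and 14.95 in B6, 21.0, 20.1 and 16.5 in KS, and 11.2, 9.58 and 9.41 in SJL. Its SJL arrays thus lay below 16, near the lower end of the scale. From KS to SJL it fell by 0.54 (SE 0.11, limma adjusted p = 0.0139), and it also fell by 0.43 from B6 to SJL (SE 0.11, limma adjusted p = 0.0348). Both had all 3 SJL arrays below all KS and B6 arrays, and both correlated with the brightest probe set over the 9 arrays, at r = 0.79 and 0.86. So the 3 Col8a1 probe sets shared a direction and differed in whether they passed. Which transcript forms each probe set reads was not analysed here.

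Col8a2 encodes the alpha2 chain of the same lattice and differed little between the strains. It measured 3740, 3261 and 3720 in B6, 3518, 3503 and 3216 in KS, and 3592, 3550 and 3358 in SJL. Every pair of strains overlapped. SJL minus KS was 0.04 with a 95% interval of -0.17 to 0.24, and KS minus B6 was -0.06 with an interval of -0.27 to 0.14.

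Col15a1 and Col18a1 gave no measured level. Col15a1 lay at 4.13 to 4.20 on all 9 arrays, at the 2.99th percentile of all probe sets. The Col18a1 probe sets lay at 4.62 to 4.71 and at 4.27 to 4.33. None of the 3 passed the brightness filter. These values set no bound on the transcripts and are not evidence that they were absent. Probe sets of 1 gene could differ widely in level: the dimmest of Col4a4 averaged 11.2 and its brightest 1272. All 3 ranked the arrays alike at the ends, with B6 replicate 1 highest and KS replicate 3 lowest.

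KS therefore held the highest mean of 6 of the 8 tested collagens, the exceptions being Col4a5 and Col8a2. In SJL against KS, 7 of 8 had a lower mean in SJL, where 47.0% of all tested genes were lower. An unadjusted limma p under 0.05 was found for 4, a count given without its share over all genes, and 1 was called, Col4a4. Among all tested genes 14.9% were called, 8.08% in the direction lower in SJL, so 1 of 8 lies close to the background. The median log2 difference of the 8 was -0.46 against 0.02 over all tested genes. Of their 16 probe sets, 15 were lower in SJL and 5 were called, from 4 genes, where 15.5% of all probe sets were called. All SJL arrays lay below all KS arrays for 4 collagens, Col4a1 to Col4a4, a pattern that 17.4% of all tested genes showed.

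In KS against B6, 6 of the 8 were higher in KS, where 52.8% of all tested genes were higher. The median of the 8 was 0.41 against 0.01 over all tested genes, and limma called 0 of the 8 and 0 of their 16 probe sets. An unadjusted p under 0.05 was found for 2, Col4a3 and Col4a4, again without a share over all genes. Of all tested genes 6.27% were called (5.71% of probe sets), and 3.4% were called higher in KS. The 3 KS arrays lay above the 3 B6 arrays for 1 collagen, Col4a4, and for 17.8% of all tested genes. Limma called 1 collagen, Col4a3, without B6 replicate 3, and 1, Col4a4, without KS replicate 3. Without B6 replicate 2, KS minus B6 fell from 0.44 to 0.20 for Col4a1, 0.45 to 0.16 for Col4a2 and 0.38 to 0.10 for Col4a6. It fell from 0.53 to 0.48 for Col4a3, 0.45 to 0.39 for Col4a4 and 0.05 to -0.17 for Col8a1. Without B6 replicate 3 it rose to 0.66, 0.72 and 0.63 for Col4a1, Col4a2 and Col4a6. In SJL against B6, limma called 0 of 8 collagens, with 0 at an unadjusted p under 0.05 and a median of -0.12 against 0.02, where 16.1% of all genes were called. Of their probe sets 1 of 16 was called, the dimmest of Col8a1 at a mean of 15.5, against 16% of all (3605 of 22519). The 3 comparisons share arrays, so they are not independent of one another. When the 3 strains were tested together by the moderated F statistic, Col4a4 alone was called (limma adjusted p = 0.0321), with 19.4% of all genes called. Here the count was 0 when B6 replicate 1, either of KS replicates 1 and 2, or SJL replicate 3 was left out, and 2 without B6 replicate 3. Without B6 replicate 2 the count stayed at 1, but the gene called was Col4a1 and not Col4a4.

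The number of collagens called in SJL against KS depended on single arrays. It was 0 when KS replicate 1 or 2 or SJL replicate 2 or 3 was left out, and 2 without B6 replicate 2 or KS replicate 3. It was 3 without B6 replicate 3, and 4 when all probe sets of a gene were averaged, then Col4a1, Col4a3, Col4a4 and Col8a1.

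**Figure D2:**
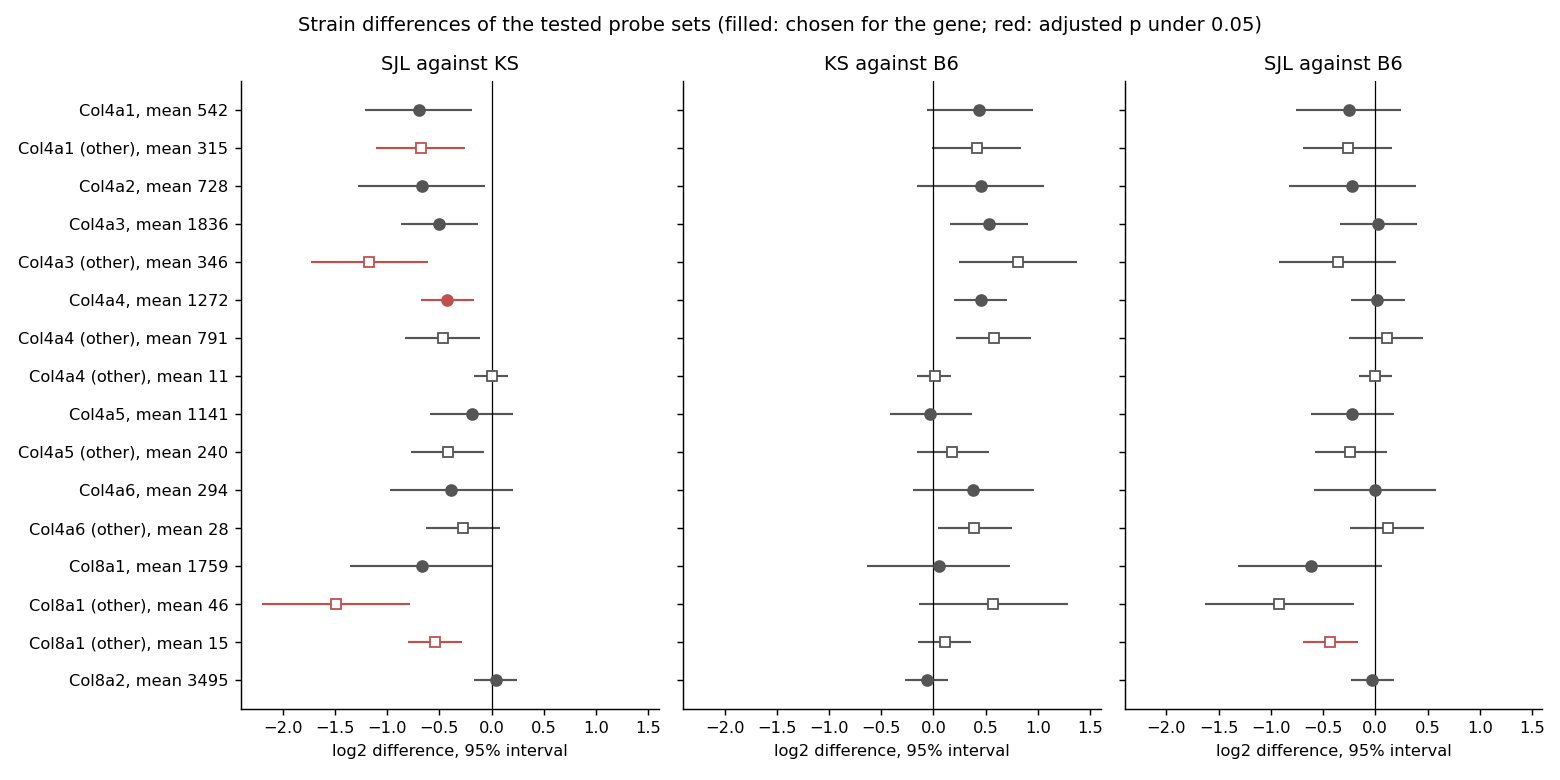
Log2 difference between strains with its 95% interval for the 16 tested probe sets of the 8 collagens, labelled with their mean intensity. Filled circles are the probe sets chosen for a gene, open squares the others, and red marks an adjusted p under 0.05. In SJL against KS 15 of 16 lie at or below 0 and 5 are red, in KS against B6 none is red, and in SJL against B6 1 Col8a1 probe set is red.

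Chains that assemble together were then compared for balance. For each array the log2 value of one chain was subtracted from that of the other, and the difference was tested among strains by an exact permutation test of the F statistic over all assignments of arrays to strains, in which the smallest possible p is 0.00357. The Col4a1 minus Col4a2 difference moved by only -0.03 from KS to SJL and 0.00 from B6 to KS, with a within-strain SD of 0.12 (exact permutation p = 0.907, adjusted 0.907 over 6 pairs). Col4a3 minus Col4a4 likewise moved by -0.08 and 0.08 (SD 0.18, exact permutation p = 0.861, adjusted 0.907). No difference in balance was detected for these 2 pairs of chromosomal neighbours.

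The remaining 4 pairs did not pass after adjustment either. Col4a3 minus Col4a5 was 0.56 higher in KS than in B6, and the 3 KS arrays (0.21 to 0.36 above the mean of all arrays) lay above all B6 and SJL arrays (exact permutation p = 0.0393, adjusted 0.214). Col4a4 minus Col4a5 differed by 0.48 between the same strains (exact permutation p = 0.0714, adjusted 0.214). Col8a1 minus Col8a2 changed by -0.71 from KS to SJL on average, with 2 SJL arrays at -0.64 and -0.68 and the third at 0.015 (exact permutation p = 0.132, adjusted 0.264). Col4a5 minus Col4a6 showed a within-strain SD of 0.35 and an adjusted p of 0.659 in the exact test. Of the 6 pairs 0 passed after adjustment, and the pair of types XV and XVIII was not tested.

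**Figure D3:**
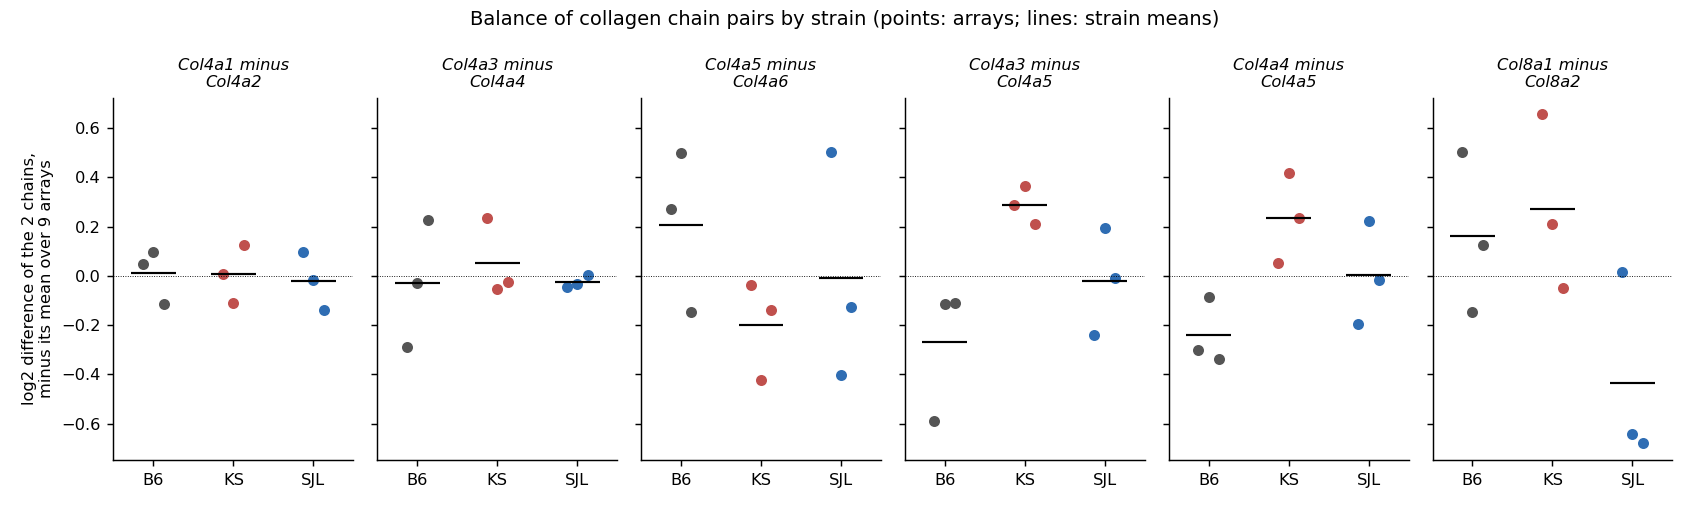
Difference between the log2 values of 2 collagen chains on each array, centred on its mean over the 9 arrays, by strain. Points are arrays and lines strain means. Col4a1 minus Col4a2 stays between -0.14 and 0.13 on all arrays, while 2 of the 3 SJL arrays of Col8a1 minus Col8a2 lie at -0.64 and -0.68.

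Whether the chains vary together among mice of one strain was asked from the deviations of each array from its strain mean, with arrays permuted within strains (all arrangements, exact and two-sided, smallest possible p 0.00463). Col4a1 and Col4a2 followed each other closely, with r = 0.96 (exact permutation p = 0.0185, adjusted 0.111 over 6 pairs) and rho = 0.93 (p = 0.0185, adjusted 0.0556) over 9 arrays. Without the 2 arrays farthest from the median, r was 0.85. Col8a1 and Col8a2 gave r = 0.82 (exact permutation p = 0.0417, adjusted 0.125) and rho = 0.78, whose p of 0.00463 is the smallest the design allows (adjusted 0.0278), and r was 0.88 without the 2 farthest arrays. The sizes of the deviations differed: Col8a1 deviated by up to about 0.49 from its strain mean and Col8a2 by no more than 0.13.

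After adjustment the rho of Col8a1 and Col8a2 passed, while its r, and both measures for Col4a1 and Col4a2, did not. The remaining 4 pairs passed by neither measure. Col4a3 with Col4a4 gave r = 0.56 and rho = 0.53 (exact permutation p = 0.282 and 0.259, adjusted 0.339 and 0.311), falling to r = 0.37 without the 2 farthest arrays. Col4a3 with Col4a5 gave 0.57 and 0.65 (exact permutation p = 0.171 and 0.0926, adjusted 0.257 and 0.139), with r = 0.45 without those arrays. Col4a4 with Col4a5 gave 0.65 and 0.68 (exact permutation p = 0.125 and 0.0833, adjusted 0.25 and 0.139), with r = 0.36. Col4a5 with Col4a6 gave 0.36 and 0.25 (exact permutation p = 0.468 and 0.597, adjusted 0.468 and 0.597), with r = 0.73, so its relation rests on which arrays are kept.

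As a description with no test, all 28 pairs of the 8 collagens had a positive within-strain correlation, from 0.28 to 0.97 with a median of 0.67. These values share arrays, and with them array-wide scaling and RNA quality. The closest pair was Col4a2 with Col4a6 (r = 0.97), which lie on different chromosomes, followed by Col4a1 with Col4a2. Col4a5 was closer to Col8a1 (r = 0.93) than to its neighbour Col4a6 (r = 0.36). Col8a2 was closer to Col4a4 (r = 0.89) and Col4a1 (r = 0.88) than to Col8a1 (r = 0.82).

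**Figure D4:**
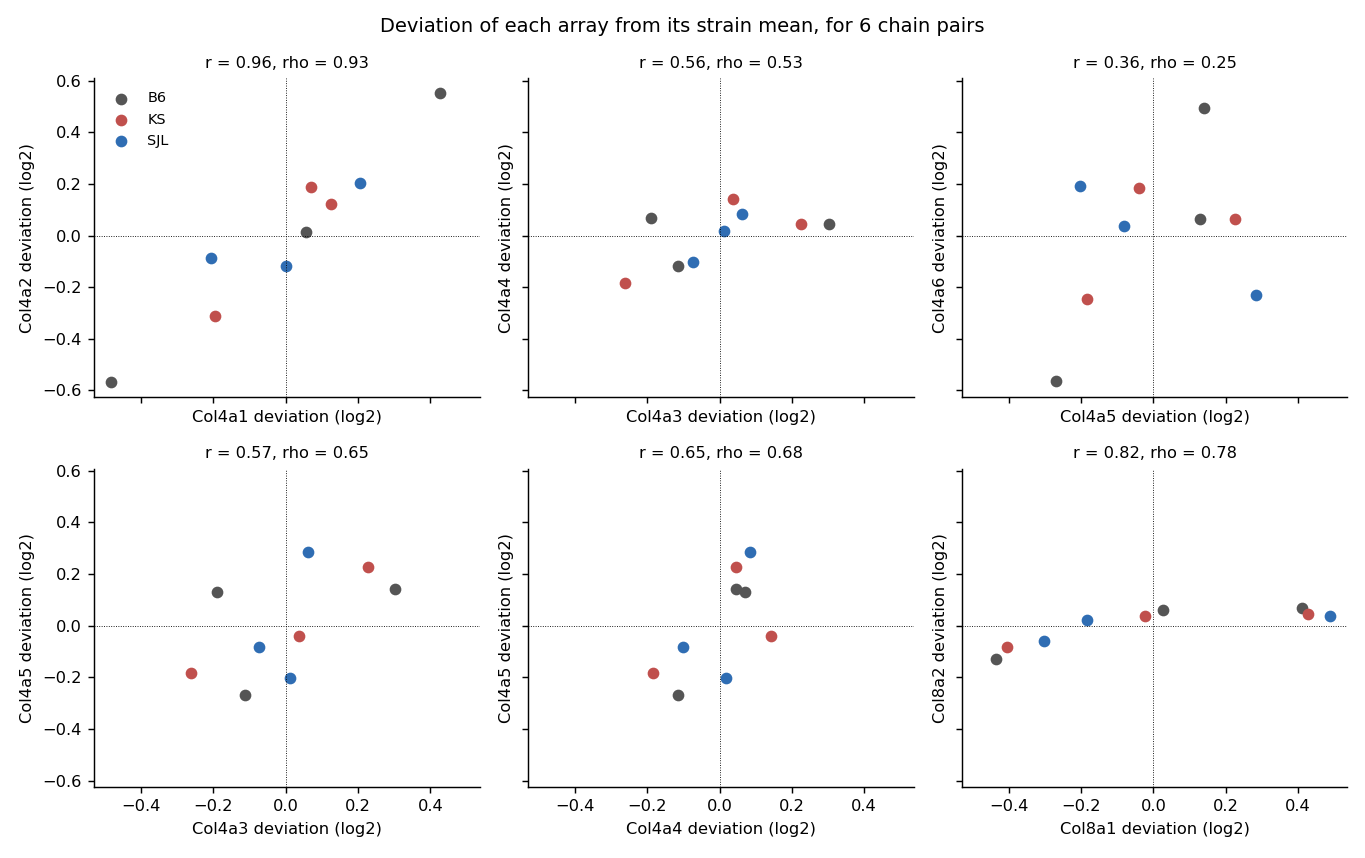
Deviation of each array from its strain mean (log2) for 6 pairs of collagen chains, coloured by strain, on common axes. Col4a1 and Col4a2 line up (r = 0.96), with B6 replicates 2 and 3 at the ends, and Col8a2 changes little along the range of Col8a1 (r = 0.82).

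Among the other 10955 tested genes, those whose log2 values were most like Col4a4 over the 9 arrays were P3h1, Zfp12 and P4ha1, each at r = 0.97, and 40 genes reached 0.9. P3h1 averaged 35.5 in B6, 65.9 in KS and 32.6 in SJL. P4ha1 averaged 525 ± 39.7, 706 ± 48.7 and 530 ± 40.0 (SD, n = 3 each), and Zfp12 567 ± 33.7, 664 ± 38.3 and 551 ± 25.9.

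Partner genes came from 5 lists of 76 genes: laminins, other basement membrane glycoproteins, genes that process collagen, receptors, and proteases with their inhibitors. Of the listed genes 73 were on the array and 56 were tested. In SJL against KS 4 were called higher and 11 lower, 26.8% of those tested against 14.9% of all genes, with a median of -0.16 against 0.02 over all genes. In KS against B6 5 were higher and 1 lower (10.7%, background 6.27%, median 0.11 against 0.01). In SJL against B6 5 were higher and 7 lower (21.4%, background 16.1%, median -0.07 against 0.02). The 11 lower in SJL than in KS became 7 without KS replicate 1 or SJL replicate 3 and 6 without KS replicate 2, and the 4 higher became 2 without KS replicate 2 or SJL replicate 3. The 5 higher in KS than in B6 became 1 without KS replicate 2, 2 when B6 replicate 1 or 2, KS replicate 1 or SJL replicate 3 was left out, and 3 without KS replicate 3. The 7 lower in SJL than in B6 became 3 without B6 replicate 1 or SJL replicate 3. All differences below are log2 values from the same limma fit. For Fbln1, P4ha1, Colgalt1 and Ddr2, the 1 other tested probe set shared the direction of each call and was not called. Of 3 others for Timp3, all in the same direction, 2 were called in SJL against KS and 0 in SJL against B6. The 1 other probe set of Lama5, Smoc2 and Fras1 was called in the same direction, as were 3 of 4 for Npnt.

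Of the laminins, the cross-shaped trimers of the basement membrane, 7 were tested. SJL was higher than KS for 2 and lower for 1, and higher than B6 for 2. Both that rose encode chains of the laminin under the corneal epithelium. Lama3 stood at 4176 ± 499 (SD, n = 3) in SJL, 2430 ± 138 in KS and 2529 ± 312 in B6, a rise of 0.77 and 0.72 (limma adjusted p = 0.00379 and 0.00516) that was called in all 9 fits with 1 array left out. Lamb3 averaged 1152 ± 142, 641 ± 35.2 and 591 ± 136, a rise of 0.83 and 0.97 (limma adjusted p = 0.0139 and 0.00633). Its call against KS needed KS replicates 2 and 3 and SJL replicate 3, each of which ended it when left out (limma adjusted p 0.0507 to 0.0552). Lama5, the alpha chain of a widespread laminin, was lower in SJL than in KS (-0.54, limma adjusted p = 0.0451) but was called in only 3 of those 9 fits, with p of 0.0642 to 0.142 in limma without B6 replicate 1, any KS array or SJL replicate 1 or 2.

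Of the other basement membrane glycoproteins, 14 were tested and SJL differed from KS for 8, 2 higher and 6 lower. Smoc2, a secreted calcium-binding matrix protein, had the largest fall: 484 ± 90.6 (SD, n = 3) in SJL, 2078 ± 412 in KS and 1167 ± 170 in B6. SJL minus KS was -2.08 and SJL minus B6 -1.26 (limma adjusted p = 0.000164 and 0.0026), both called in all 9 fits with 1 array left out. KS exceeded B6 by 0.82 (limma adjusted p = 0.045), a call kept in 2 of 9 such fits, with p of 0.0514 to 0.167 when any B6 array or replicate 2 or 3 of KS or SJL was left out. Its relative Smoc1 averaged 214 ± 72.8 in SJL and 487 ± 65.5 in KS (-1.19, limma adjusted p = 0.00706).

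Members of the Fraser complex, which anchors epithelial basement membranes, moved in both directions. Frem2 was lower in SJL than in KS (282 ± 121 against 619 ± 58.0, -1.18, limma adjusted p = 0.018), a call that ended when KS replicate 1 or 3 or SJL replicate 3 was left out (0.0588 to 0.0649). Fras1 was lower in SJL than in B6 (67.1 ± 22.2 against 151 ± 12.2, -1.10, limma adjusted p = 0.0101), whereas Frem1 was higher (means of 55.7 against 14.1, 1.48 ± 0.21 SE, limma adjusted p = 0.00187). In KS against B6, 4 glycoproteins rose and 0 fell. Fbln1, the fibulin-1 gene, averaged 492 ± 12.3 in KS and 244 ± 33.6 in B6 (0.99, limma adjusted p = 0.00203). Npnt, an integrin ligand of basement membranes, averaged 2724 ± 369 and 1562 ± 239 (0.80, limma adjusted p = 0.0181), lost without KS replicate 1 or KS replicate 2 (0.0623 and 0.0774).

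Of the genes that modify, fold and crosslink collagen, 16 were tested, and 2 were called in SJL against KS, both lower. P3h1, a prolyl 3-hydroxylase, fell by 0.81 (limma adjusted p = 0.0179), and P4ha1, a catalytic subunit of prolyl 4-hydroxylase, fell by 0.41 (limma adjusted p = 0.0258). Both calls ended when KS replicate 1 or 2 or SJL replicate 3 was left out, at 0.0507 to 0.0682 for P3h1 and 0.0872 to 0.0944 for P4ha1. P4ha1 rose by 0.42 from B6 to KS (limma adjusted p = 0.0477), but this was called in 0 of the 9 fits with 1 array left out (0.0506 to 0.177). Colgalt1, a collagen galactosyltransferase, was lower in KS (517 ± 41.5) and SJL (534 ± 68.7) than in B6 (742 ± 53.9), at -0.51 and -0.47 (limma adjusted p = 0.043 and 0.0289). The first call was kept in 2 of 9 such fits, all but those without SJL replicate 1 or 2 losing it (0.0578 to 0.155), and the second in 5, lost when replicate 1 or 3 of B6 or SJL was left out (0.0559 to 0.0859).

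Of the receptors, 11 were tested. Ddr2, a receptor tyrosine kinase that binds collagen, had means of 567 ± 109 (SD, n = 3) for SJL, 787 ± 12.6 for KS and 824 ± 78.6 for B6. SJL minus KS was -0.48 and SJL minus B6 -0.54 (limma adjusted p = 0.0489 and 0.0302). Each call was kept in 2 of 9 fits, those without B6 replicate 3 or SJL replicate 1, and lost in the others (0.0689 to 0.139 and 0.0514 to 0.0971). Kdr, a receptor for VEGF, was lower in SJL than in B6 (means of 61.2 against 145, -1.07 ± 0.23 SE, limma adjusted p = 0.0161), and 0.0628 without SJL replicate 3. Of 8 proteases and inhibitors tested, Timp3 alone was called, an inhibitor that binds to the matrix. Its mean was 986 ± 210 in SJL against 2267 ± 297 in KS and 1510 ± 85.5 in B6, so that SJL minus KS was -1.20 and SJL minus B6 -0.63 (limma adjusted p = 0.00132 and 0.0295). The second call was lost without any 1 of the B6 arrays, SJL replicate 2 or SJL replicate 3 (0.0626 to 0.103).

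Some markers of corneal endothelium and keratocytes also differed among the strains. Of 14 listed markers of corneal endothelium, the source of Descemet membrane, 11 were on the array, and Slc16a3 and Car12 lay below 16 on every array. The summed level of the 11 was 24988 to 25781 in KS, 20777 to 24259 in B6 and 17909 to 20586 in SJL, and the strains did not overlap. Bright genes weigh most in this sum, with Atp1b1 at 5625 ± 451 (SD, n = 3) in KS and 2668 ± 366 in SJL. No background for the sum is given here. Of 9 tested, limma called 3 as lower in SJL than in KS, where 8.08% of all tested genes were called lower in SJL. They were the transporter genes Slc16a1 (-1.38, limma adjusted p = 9.37e-05) and Atp1b1 (-1.08, 0.00169) and the water channel Aqp1 (-0.30, 0.0464). The transporter gene Slc4a11 was at -0.40, Slc4a4 at -0.23 and the transcription factor Tfap2b at 0.22, none of them called. Cdh2 (-0.29), Foxc1 (-0.13) and Ptgds (-1.21, at 466 ± 319 in KS) were not called either. The summed level of 10 keratocyte markers was 70049 to 76945 in KS, 65036 to 74372 in B6 and 62143 to 65248 in SJL, with Dcn (-0.37) and Aldh1a1 (-0.40) called lower in SJL than in KS (limma adjusted p = 0.0168 and 0.0143). The 10 epithelial markers summed to 167607 to 176888 over the 9 arrays, with 0 called between SJL and KS. In the F-test 2 of 9 endothelial, 2 of 10 keratocyte and 0 of 10 epithelial markers were called, against 19.4% of all tested genes. Pigment and iris markers (8 genes) summed to 143 to 186 in SJL, 225 to 339 in B6 and 238 to 294 in KS, with 5 or 6 of 8 below 16 on each array and Best1 called lower in SJL than in KS (-1.18, limma adjusted p = 0.0037). Lens markers (9 genes) summed to 73 to 140 in SJL and 59 to 62 in B6 and KS, with 8 of 9 below 16 and Bfsp1 called higher in SJL than in KS (1.18, limma adjusted p = 0.0243). The part of these markers' differences in the collagen values was not tested.

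**Figure D5:**
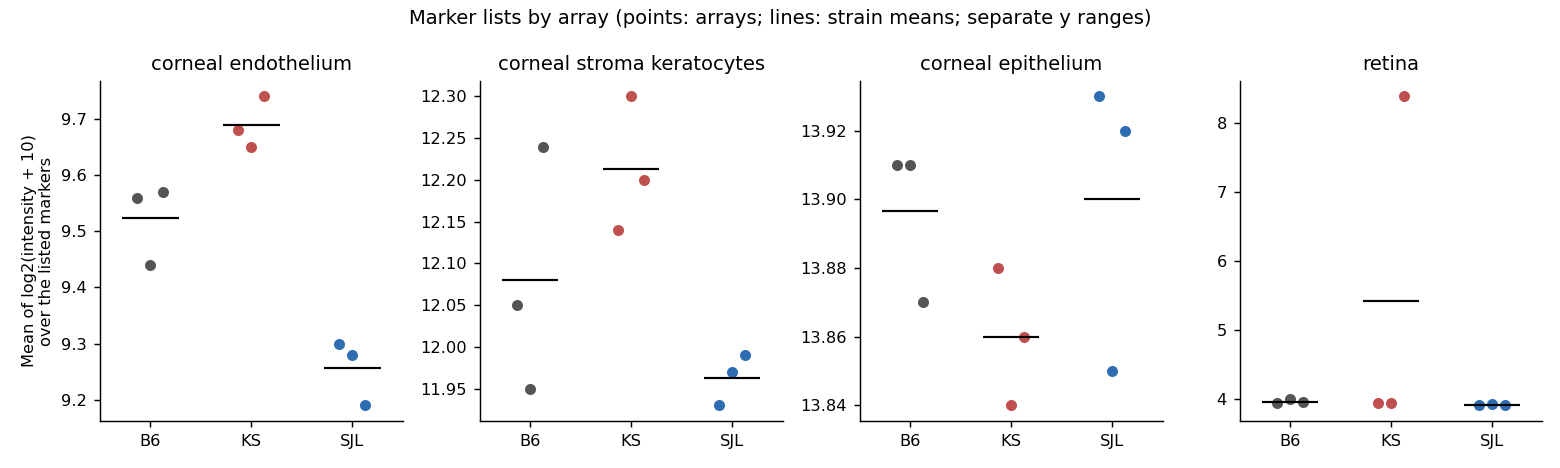
Mean of log2(intensity + 10) over the markers of corneal endothelium (11 genes), stroma keratocytes (10), epithelium (10) and retina (11) on each array, by strain, with lines at strain means and separate y ranges. The endothelial mean is highest on the 3 KS arrays (9.65 to 9.74) and lowest on the 3 SJL arrays (9.19 to 9.30). Among its tested genes Slc16a1, Ptgds and Atp1b1 differ most, at -1.38, -1.21 and -1.08 for SJL minus KS. Tfap2b goes the other way (0.22). The retina mean stands out on KS replicate 3 alone (8.39).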

How the data were processed

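Central corneas of 9 mice, 3 per strain, were measured on Affymetrix arrays. The authors deposited 1 table of probe set intensities on a linear scale, already summarised per probe set. How they were summarised, background-corrected and scaled is not given in the sources here. Per the labels' protocols, RNA was DNase-treated, column-purified and biotin-labelled. Control probe sets (64 of 45101) were left out. Of the rest, 34945 had 1 gene symbol in the platform annotation, and 34741 of these matched the RefSeq table of GRCm38.p6.

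Intensities were analysed as log2(intensity + 10), which understates differences of dim probe sets. Probe sets with a mean log2 below the median of all (an intensity of about 8.01) were left out. limma 3.58.1 in R 4.3.3 fitted 1 mean per strain to the 9 arrays (6 residual degrees of freedom, 8.41 in the median after moderation), with two-sided tests, Benjamini-Hochberg adjustment over the 22519 probe sets tested and a threshold of 0.05. Single genes were tested in limma alone, since 0.1 is the smallest p of an exact test between 2 groups of 3. On data simulated for SJL against KS on those probe sets, the fit called 73 of 100 with a log2 change of 1, 93 of 100 with a log2 change of 2, and 7 unchanged ones. Far fewer probe sets were changed there than the 3489 called in the data. Smaller changes were not simulated, and the chosen collagen probe sets reached only -0.70. The rates thus do not give the power for these collagens. Arrays have no read depth, and 3 per strain limit the precision.

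All 10 collagens are named, with the 3 genes most like any collagen called in the F-test, and from each of 5 partner lists up to 3 called genes with the largest difference per contrast. Marker genes of 7 tissues served as checks. Members, lists and tests were chosen with earlier results of these data known. Replicates are numbered as in the titles, and the descriptions number 3 samples differently (B6 replicate 3, KS replicates 2 and 3). The titles' numbers were not taken to pair the mice: deviations of same-numbered arrays correlated at -0.27 to 0.26, with 3 of 9 above 0.1. The alternatives are given in the closing section.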

Additional observations from a re-analysis of the deposited data

How the results depend on the processing

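The filter was dropped or raised to the 70th percentile, arrays were quantile-normalized or centred on the median, and pseudocounts of 1 and 50 and an intensity trend were tried. Fits also used a replicate block, only the 2 strains compared, plain probe sets (no suffix marking shared sequence) or the mean of a gene's probe sets, and left out each array in turn. Leaving out B6 replicate 3 and KS replicate 3 together, and all alternatives for the partner genes, were added after seeing the data. No log2 difference of a called gene changed direction, and the scalings moved the median of all genes by less than 0.1. Of the collagens, 1 was called in SJL against KS. This became 0 with no filter, 2 with the replicate block, 2 with only the 2 strains, 4 with the mean of all probe sets and 3 without both arrays, and 0 to 3 with 1 array left out. The 0 in KS against B6 became 1 with the 70th percentile, 1 with a pseudocount of 50, 1 with the trend, 2 with the mean of probe sets and 1 without both arrays, and 0 to 1 with 1 array left out. The 0 in SJL against B6 became 1 with the replicate block. The 1 in the F-test became 0 with no filter, 2 with the trend, 0 with the block, 3 with the mean of probe sets and 2 without both arrays, and 0 to 2 with 1 array left out. Under the block, Col8a1 was called in SJL against KS (limma adjusted p = 0.0398) and in SJL against B6 (0.0483). The numbers are not known to pair mice, and those of the titles differ from those of the descriptions for some samples. The tests of chain balance (the difference between 2 chains) called 0 pairs under every alternative run, with a lowest adjusted exact permutation p of 0.0643. For the partner genes the alternatives with the largest changes are given, and smaller changes are left out. Of these genes, the 4 higher in SJL than KS became 2 with the 70th percentile, 2 with plain probe sets and 6 with the trend, 2 to 4 with 1 array left out. The 11 lower became 7 with no filter, 7 without both arrays and 15 with the mean of probe sets, 6 to 13 with 1 left out. The 5 higher in KS than B6 became 1 with no filter, 3 with a pseudocount of 1 and 3 with only the 2 strains, 1 to 5 with 1 left out. The 1 lower became 0 with no filter, 0 with the trend, 0 with the block and 0 without both arrays, 0 to 1 with 1 left out. The 5 higher in SJL than B6 became 3 with the 70th percentile and 3 with plain probe sets. They became 7 with no filter and 7 with the trend, and 5 to 7 with 1 left out. The 7 lower became 2 with no filter, 2 with only the 2 strains and 3 without both arrays. They became 9 with the mean of probe sets and 9 with plain probe sets, and 3 to 8 with 1 left out. Where fewer arrays or more probe sets entered, the test itself changed; otherwise the cause was not tested. Differences of dim probe sets, such as the 2 dimmer ones of Col8a1, depend on the pseudocount, and Col15a1 and Col18a1 could not be compared at all at this signal.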
